A study of Mus musculus with 8 samples.

Results

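Blood natural killer (NK) cells were described here from single-cell RNA counts of leukocytes that had been sorted for CD45 and CD11b. They were chosen by their UMI counts, a UMI being 1 counted transcript molecule. A blood barcode was taken when Ncr1, Klrb1c and Klre1 together had at least 2 UMIs and Gzma, Nkg7 and Ccl5 together at least 5. It could hold at most 5 UMIs of C1qa, C1qb, Apoe, H2-Aa and Lyz2 together, no Cd79a, and at most 1 UMI of Cd3d, Cd3e and Cd3g. The rule found 473 blood NK barcodes among 11130 barcodes in the series. Every gene in the rule is a selection value, and none of them was tested.

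The recipients were Mx1Cre:c-Mybfl/fl mice, in which floxed c-Myb can be deleted by an inducible Cre. They had been transplanted with bone marrow from stroke donors or from control donors, with 2 mice in each group. All 4 mice carried the recipient genotype, so it does not separate the groups. Blood and heart cells of each mouse carried different hashtag antibodies and were pooled in 1 library. The labels used here do not give the age or sex of the mice. A sort for CD11b keeps NK cells that carry this integrin, so the values describe that fraction and not all NK cells of the blood.

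NK cells are innate lymphocytes that kill infected or transformed cells with perforin and granzymes and secrete interferon gamma and chemokines. In the mouse, inhibitory and activating receptors of the Ly49 family, encoded by the Klra genes, read class I molecules, and each cell carries only some of them. Maturing NK cells gain CD11b and later KLRG1, and the transcription factors Eomes, T-bet and Zeb2 act along that path. NK cells patrol the blood and also enter the heart.

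The 4 libraries held between 10067873 and 16513840 gene UMIs, with medians of 4005 to 4689 UMIs per barcode. The barcode suffix was matched to the mouse by the sample number in the labels, and every comparison of marrow donors rests on that match. Control mouse 1 differed from the others in 2 ways that touch these comparisons. Its blood NK barcodes held no Xist and 22 UMIs of Ddx3y, a gene of the Y chromosome, against 135 to 267 and at most 1 in each other mouse. It also carried another fluorescent transgene. Sex type and transgene of this mouse cannot be told apart from its other differences. Of 14 barcode sequences found in more than 1 library, 1 was a blood NK barcode.

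Blood NK cells made up 94 of 1138 blood barcodes in control mouse 1, or 8.26% with an exact 95% interval of 6.73 to 10.0%. In control mouse 2 they were 121 of 987, 12.3% with an interval of 10.3 to 14.5%. In stroke mouse 1 they were 194 of 1376, 14.1% with an interval of 12.3 to 16.1%. Stroke mouse 2 had the lowest share, 64 of 1309 or 4.89%, with an interval of 3.79 to 6.20%. The 2 stroke mice thus lay at both ends of the range, with the controls between them. These Clopper-Pearson intervals cover counting error only.

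The mean share was 9.49 ± 6.51% (SD, n = 2) in stroke mice and 10.3 ± 2.83% in control mice. The difference of -0.77 percentage points had an exact two-sided permutation p of 1, and 2 mice against 2 cannot give a p below 0.33. Stroke mouse 2 also stood apart in its B cells. Of the 1216 blood barcodes with at least 3 Cd79a UMIs, 938 came from it. Keeping barcodes with at most 1 UMI of the B-cell genes Cd79a, Cd79b and Ms4a1 together left 1000, 913, 1278 and 304 blood barcodes in control mice 1 and 2 and stroke mice 1 and 2. In that denominator the NK shares were 9.40% and 13.3% in the controls and 15.2% and 21.1% in the stroke mice. On that denominator both stroke mice lay above both controls, by a mean of 6.79 points, with the smallest exact permutation p the design allows, 0.33. The direction therefore differed between the 2 denominators, and a share cannot tell more NK cells from fewer other cells.

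The same rule applied to heart barcodes found 164 NK barcodes. Their shares were 4.09% and 3.05% in control mice 1 and 2 and 3.62% and 1.91% in stroke mice 1 and 2. The share was lower in heart than in blood in 4 of 4 mice, by a mean of 6.71 ± 3.69 points (SD, n = 4). The exact sign-flip permutation p was 0.12, the smallest that 4 mice allow.

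**Figure D1:**
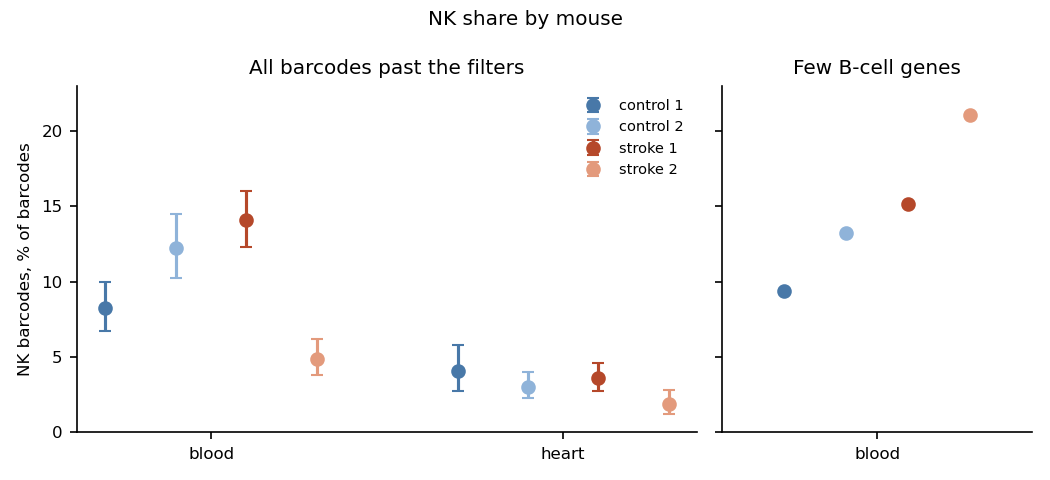
NK barcodes as a percentage of blood or heart barcodes in each mouse; bars are exact 95% Clopper-Pearson intervals, and the right panel keeps only barcodes with at most 1 UMI of 3 B-cell genes in the denominator. Stroke mouse 2 is the lowest in blood at 4.89% and the highest, at 21.1%, once B-cell barcodes are left out.

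Members were far from the edges of the rule in most respects. The NK sum had a median of 13 UMIs and a range of 2 to 31, with 3 members at the limit of 2 and 1 barcode just outside at 1. The effector sum had a median of 134 UMIs, and none stood at its limit. No member had more than 4 of the myeloid UMIs, 9 members had 1 Cd3 UMI, and 1 barcode was kept out by 2. Members had median depths of 3473, 3087, 3117 and 3268 UMIs in control mice 1 and 2 and stroke mice 1 and 2, so the mice were similar in depth.

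The label was checked on genes that the rule did not use. Detection is given as the share of barcodes with a UMI after thinning each barcode to 1500 UMIs. Thinning kept 462 blood NK barcodes and 1201 blood B cells, the latter as a reference for free RNA. Before thinning, 938 of the 1216 B cells came from stroke mouse 2, so the reference mostly describes that mouse. Tyrobp, an adaptor that carries the signal of activating receptors, was detected in 97.2% of NK barcodes, against 23.2% of B cells. Klrk1, which encodes the activating receptor NKG2D, was detected in 77.3% and 0.0833%. Klrd1, the CD94 subunit of NKG2 receptors, was detected in 74.9% and 0.0833%. Each of these lay well above its level in B cells.

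Perforin (Prf1) was detected in 79.2% of thinned NK barcodes and granzyme B (Gzmb) in 61.5%, against 0.33% and 0% of B cells. Unthinned, Gzmb was found in 72.3% and 73.6% of the barcodes of the controls and in 82.0% and 68.8% of those of the stroke mice. Granzyme M (Gzmm) and granzyme K (Gzmk) were each found in 2.33% of unthinned barcodes. Among the granzymes named here that are outside the rule, Gzmb was thus found in most barcodes and Gzmm and Gzmk in few. Gzma is in the rule, so its presence follows in part from the selection.

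The transcription factors of the NK lineage were detected in all 4 mice. Eomes was found in 58.5%, 46.3%, 54.1% and 51.6% of barcodes in control mice 1 and 2 and stroke mice 1 and 2, and Tbx21, which encodes T-bet, in 64.9%, 55.4%, 46.4% and 56.3%. Zeb2, a repressor needed for late maturation, was found in 84.0% to 92.2%. After thinning, Eomes was in 30.3%, Tbx21 in 31.8% and Zeb2 in 73.2%, against 0%, 0.0833% and 36.4% of B cells. Zeb2 is thus not specific to NK cells here, whereas Eomes is at 0 in the thinned B cells.

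Several markers of early NK cells and of other lymphocytes were scarce, and others were not. Ctla2a, a listed early NK gene, was found in 32.8% to 53.2% of barcodes. Cd27, lost late in maturation, was found in 11.3% to 15.7% of barcodes, and Il7r, the interleukin-7 receptor, in 0% to 4.26%. Cxcr6, a receptor of tissue-resident type 1 innate lymphoid cells, had 0 UMIs in 473 barcodes, which allows up to 0.634% of barcodes with a UMI and sets no limit on cells that express it. It was found in 0.247% of unthinned B cells. Of the 12 T-cell markers, Cd4, Cd8a, Cd8b1, Cd6 and Tcrg-C1 were also at 0. The rule limits Cd3 UMIs, so low T-cell markers follow in part from the selection. Trac, the constant region of the T-cell receptor alpha chain, had 9 UMIs in all, while Trbc1 was found in 31.3% to 44.7% of barcodes and Trdc in 7.73% to 18.1%. Transcripts of Trbc1 and Trdc without those of Trac are known from NK cells as unrearranged or germline transcripts.

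Markers of other leukocytes were low. The rule limits myeloid and Cd79a UMIs, so low macrophage and B-cell values follow in part from the selection. The 10 macrophage markers summed to 65.1 to 115 UMIs per 1000000 UMIs (CPM), with Mrc1 and Fcgr1 at 0. The 10 neutrophil markers summed to 17.0, 63.6, 231 and 27.7 CPM in control mice 1 and 2 and stroke mice 1 and 2, with Ly6g and Il1r2 at 0. In stroke mouse 1, 2 barcodes held 45 and 38 of the 109 UMIs of the neutrophil genes S100a8 and S100a9. The 10 B-cell markers summed to 55.1 to 115 CPM, with Ighd and Fcmr at 0.

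Ly6a, which encodes the stem-cell antigen Sca-1, had 0 UMIs in the 473 blood NK barcodes, which allows up to 0.634% of barcodes with a UMI at this depth and sets no limit on cells that express it. It was detected in 62.0% of thinned blood B cells, most of which came from stroke mouse 2, so the transcript was readable at least in that library. Detection in the B cells of the other mice was not examined separately. Among 33 measured genes of the type I interferon response, Ifit3, Ifit3b and Oas2 were also at 0 in blood NK cells, and Isg15 was found in 1.56% to 7.44% of barcodes, or 3.25% after thinning against 1.25% of B cells. The whole list summed to 1254, 1319, 1507 and 1226 CPM in control mice 1 and 2 and stroke mice 1 and 2, a range without separation of the donors.

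The Ly49 genes lie in a cluster on chromosome 6 (GRCm38, from 129898996 for Klra5 to 131247362 for Klra2). Klra9 was the most often detected, in 57.5%, 52.1%, 50.5% and 56.3% of barcodes in control mice 1 and 2 and stroke mice 1 and 2. Klra8, encoding the activating receptor Ly49H that binds a protein of mouse cytomegalovirus, was detected in 41.5%, 42.2%, 49.5% and 43.8%. Klra4, encoding the activating receptor Ly49D, was detected in 48.9%, 41.3%, 33.5% and 51.6%. All 3 were found in every mouse in a substantial part of the cells and never in all of them.

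Klra7, encoding the inhibitory receptor Ly49G, was detected in 39.7% to 50% of barcodes and Klra3, encoding the inhibitory receptor Ly49C, in 32.5% to 43.8%. Klra1, encoding the inhibitory receptor Ly49A, varied most among mice, at 20.2% and 4.96% in the controls and 7.73% and 17.2% in the stroke mice, so that the extremes lay within the control group. Klra5, Klra6 and Klra10 were each found in at most 7.81% of barcodes in every mouse, and Klra2 and Klra17 in at most 1.06%. In thinned B cells no Klra gene exceeded 0.749%.

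A blood NK barcode showed a median of 2 Klra genes and at most 6. After thinning, 12.3% of barcodes showed none, 22.1% showed 1, 31.4% showed 2, 23.8% showed 3 and 8.23% showed 4. Klra4 was found in 70.7% of the 41 barcodes with Klra1 and in 34.7% of the 421 without it. The difference had the same direction in all 4 mice, with Klra4 at 76.9%, 75%, 50% and 90% of Klra1 barcodes against 40%, 35.7%, 29.9% and 40.4% of the others. Klra4 was found in 45.5% of 176 barcodes with Klra8 and in 33.2% of 286 without it. The shares with and without a gene describe barcodes all thinned to 1500 UMIs, without a test. The median and the maximum are from unthinned barcodes, where a deeper barcode can show more genes of any kind. Klra1 and Klra4 also share some sequence, as given below, and the part of that in their values was not tested.

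Similar genes can share reads. Of the 50-base words in the last 500 bases of the transcripts, 42.4% for Klra3, 40.8% for Klra9 and 40.6% for Klra10 occurred in another Klra gene. The share was 13.1% for Klra8, 5.77% for Klra1 and 4.66% for Klra4, the last 2 with each other, and 0% for Klra7. Values of Klra3, Klra9 and Klra10 are therefore uncertain, and those of Klra7, Klra4 and Klra8 less so.

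**Figure D2:**
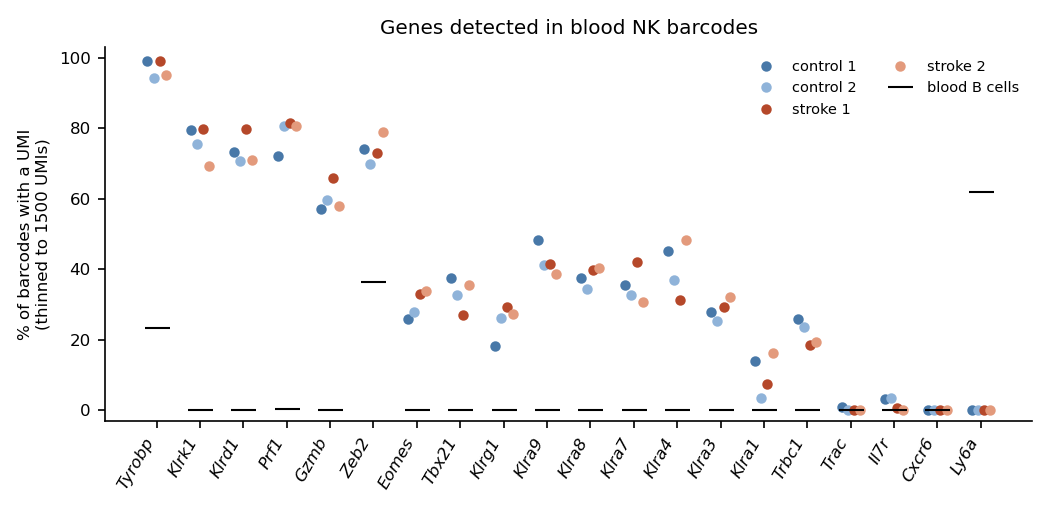
Share of blood NK barcodes with a UMI of each gene after thinning to 1500 UMIs, by mouse (points). Black bars are the share of thinned blood B cells of all mice, most of them from stroke mouse 2. Klrk1 (77.3%) lies far above the B cells, Klra9, Klra8 and Klra4 (42.4%, 38.1% and 37.9%) lie below it and above Eomes and Tbx21 (30.3% and 31.8%), and Ly6a is at 0 in all 4 mice and at 62.0% in B cells.

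The matrix lists 2 fluorescent-protein transcripts, agfp and kgfp, and the labels used here do not say which cells carry them. In NK barcodes, agfp was found in 31.9%, 74.4%, 84.5% and 73.4% of control mice 1 and 2 and stroke mice 1 and 2. In control mouse 1 a barcode with agfp had a median of 1 UMI, against 17, 14 and 17 in the other mice. The kgfp transcript was found in 54.3% of its NK barcodes and in none of the other 3 mice. In barcodes with neutrophil genes agfp reached 89.7%, 99.2% and 97.6% in control mouse 2 and stroke mice 1 and 2. In each of these 3 mice a smaller share of NK than of neutrophil barcodes carried it. NK barcodes were the deeper ones in these mice, with medians of 3087, 3117 and 3268 UMIs against 2000, 1868 and 2004 in neutrophil barcodes. The part of depth in the agfp shares was not tested, nor was the share of NK cells that came from the donor.

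The first comparison across all genes asked whether blood NK cells differed between recipients of stroke and of control marrow. Counts were summed per mouse and tested with the quasi-likelihood test of edgeR, with p-values adjusted by Benjamini-Hochberg over 5455 genes. No gene passed an adjusted p of 0.05, which is 0% of the genes tested, and 224 had an unadjusted p under 0.05. DESeq2 called 0 as well, and 20 genes there had an unadjusted p under 0.05. Separation of the groups was common, with 857 genes (15.7%) above both controls in both stroke mice and 878 (16.1%) below, and counts of separated genes are read against these shares.

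Among the Ly49 receptors, 7 genes were tested, 1 was separated upward and 1 downward, and the median log2 difference was -0.05, against -0.0049 over all genes. Klra8 stood at 832 and 636 CPM in control mice 1 and 2 and at 747 and 738 CPM in stroke mice 1 and 2. The stroke values lay between the 2 controls, with a log2 difference of 0.02 (SE 0.16) and an edgeR adjusted p of 0.999. Klra4 stood at 1156 and 890 CPM in the controls and at 695 and 1218 CPM in the stroke mice, again with overlap, at -0.14 (SE 0.21). The estimate for Klra4 changed sign without control mouse 1 (0.05) and without stroke mouse 1 (0.25), and that for Klra8 without control mouse 2 (-0.15).

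Klra9 was the Ly49 gene separated downward and Klra3 the one separated upward. Klra9 stood at 838 and 618 CPM in the controls and at 616 and 576 CPM in the stroke mice, with -0.28 (SE 0.17). Klra3 stood at 324 and 376 CPM in the controls and at 526 and 623 CPM in the stroke mice, so the groups did not overlap. The log2 difference was 0.69 (SE 0.17), with an edgeR adjusted p of 0.857. When the filter on low counts was dropped, the adjusted p was 0.0435. Barcodes with Klra3 made up 38.3%, 33.1%, 32.5% and 43.8% in control mice 1 and 2 and stroke mice 1 and 2, with the groups overlapping, and the read sharing applies to both genes.

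Of 12 cytotoxic genes tested, 3 were separated upward and 1 downward, with a median of 0.12. Prf1 stood at 1325 and 1416 CPM in the controls and at 1416 and 1605 CPM in the stroke mice, a log2 difference of 0.13 (SE 0.13). Gzmb stood at 835 and 1022 CPM and at 871 and 959 CPM, a difference of -0.03 (SE 0.15). Both genes of the killing machinery overlapped between donors, and the sign for Gzmb turned without control mouse 2 (0.13) and without stroke mouse 1 (0.05). Serpinb9b, a granzyme inhibitor family member, stood at 135 and 160 CPM and at 230 and 189 CPM, with 0.54 (SE 0.20) and an edgeR adjusted p of 0.999. Rab27a, which brings granules to the membrane, stood at 77.4 and 71.2 CPM and at 121 and 96.8 CPM, with 0.61 (SE 0.25) and the same adjusted p.

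Of 10 tested genes of the early NK stage, 0 were separated upward and 3 downward, with a median of -0.19. Of the list of type 1 innate lymphoid cells, Il7r and Rora were the 2 genes tested, and both were separated downward. Il7r had 14 and 11 UMIs in the controls and 2 and 0 in the stroke mice. The groups did not overlap, yet 1 barcode held 42.9% of the UMIs in control mouse 1 and another 54.5% in control mouse 2. The log2 difference was -3.69 (SE 0.75), with an edgeR adjusted p of 0.58, and 0.00124 when the filter on low counts was dropped. Rora, a transcription factor of innate lymphoid cells, had 25 and 13 UMIs in the controls and 12 and 3 in the stroke mice, which is 71.7, 33.1, 18.9 and 13.8 CPM. Its difference was -1.54 (SE 0.48), with an edgeR adjusted p of 0.999.

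Cd27 had 16 and 27 UMIs in the controls and 26 and 9 in the stroke mice, at 45.9, 68.7, 41.0 and 41.5 CPM, a difference of -0.49 (SE 0.35). Prdm1 encodes the transcriptional repressor Blimp-1 and is among the listed genes of terminal maturation. It stood at 31.6 and 53.4 CPM in the controls and at 72.5 and 64.6 CPM in the stroke mice, with 0.70 (SE 0.34). Both genes were separated between the donors, and neither passed the test. Of 13 genes of terminal maturation, 3 were separated upward and 1 downward, with a median of 0.03.

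The type I interferon list had 12 tested genes with a median of 0.06, the interferon gamma list 12 with -0.02 and the immediate early list 12 with 0.11. Xist, the X-inactivation transcript, stood at 0 and 394 CPM in the controls and at 421 and 623 CPM in the stroke mice, with control mouse 1 alone at 0. Leaving out 1 mouse at a time gave 7 to 14 genes past the threshold, with the single mouse of the reduced group taken to vary like the others.

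**Figure D3:**
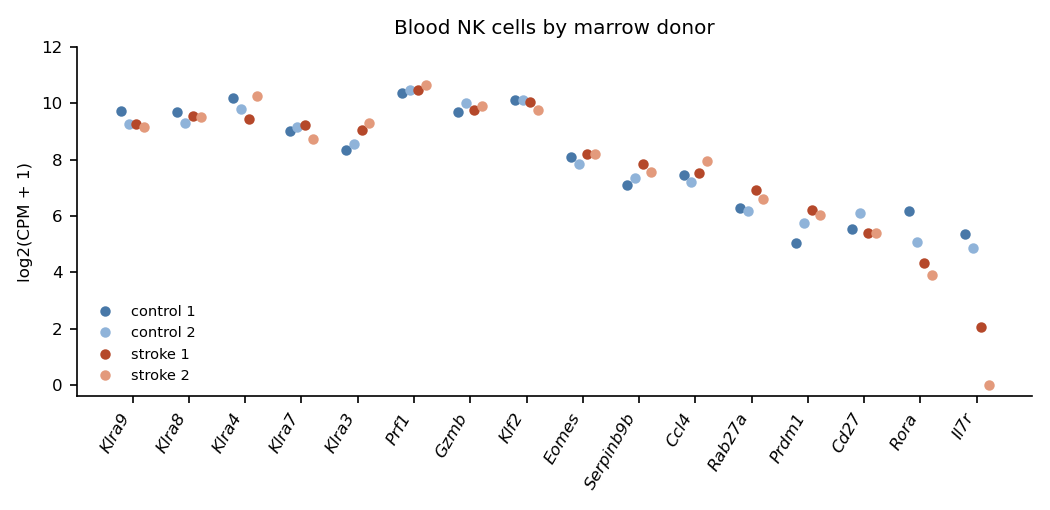
Log2(CPM + 1) of 16 genes in the blood NK cells of each mouse, in 2 control mice and 2 stroke mice. No gene passed the test, the points of the 2 groups interleave for Klra8, Klra4 and Gzmb, and Il7r falls to 0 in stroke mouse 2.

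The second comparison set NK cells of the heart against those of the blood of the same 4 mice, with the mouse as a block and the same rule in both organs. Of 3384 genes tested by edgeR, 189 (5.59%) passed an adjusted p of 0.05. Heart was higher for 153 genes (4.52%) and lower for 36 (1.06%), and the median over all genes was -0.01. The median depth was 3891, 2759, 2538 and 2955 UMIs in heart NK barcodes of control mice 1 and 2 and stroke mice 1 and 2, against 3473, 3087, 3117 and 3268 in blood. The sources used here do not say how the heart was made into a cell suspension, and organ and preparation cannot be told apart.

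Blood NK cells held low levels of immediate early genes, which are transcribed within minutes of a stimulus. The list summed to 1855 to 2083 CPM in blood and to 6000 to 8394 CPM in heart, without overlap. Of its 16 tested members, 15 were called higher in heart and 0 lower, with a median log2 difference of 2.33. Over all genes tested, 4.52% were called higher and 1.06% lower. Nfkbia, an inhibitor of NF-kB, was called but was higher in 3 of 4 mice, at 97.5, 114, 135 and 110 CPM in blood and 648, 72.6, 388 and 178 CPM in heart, and its DESeq2 adjusted p was 0.90. The 10 macrophage markers, none of them in the rule, summed to 65.1 to 115 CPM in blood and to 58.1 to 99.8 CPM in heart NK cells, but the rule limits macrophage UMIs in both organs. The 8 class II markers summed to 45.3, 107, 47.2 and 134 CPM in blood and to 51.0, 116, 99.8 and 154 CPM in heart, higher in 4 of 4 mice, and their part in the result was not tested.

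Nr4a2, an orphan nuclear receptor on chromosome 2 (GRCm38, 57106830 to 57124003), stood at 17.2, 15.1, 11 and 32 CPM in blood NK cells of control mice 1 and 2 and stroke mice 1 and 2. In heart it stood at 648, 501, 464 and 747 CPM. Every heart value exceeded every blood value, with a log2 difference of 5.04 (SE 0.22) and an edgeR adjusted p of 1.5e-20. Fos, an AP-1 subunit, had 1, 2, 3 and 2 UMIs in blood and 18, 17, 47 and 16 in heart, with 5.23 (SE 0.38). Junb, another AP-1 subunit, stood at 120, 126, 118 and 165 CPM in blood and at 1269, 770, 1234 and 1352 CPM in heart, with 3.13 (SE 0.14).

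Dusp1, a phosphatase that turns off MAP kinases, had 2, 0, 8 and 1 UMIs in blood and 33, 22, 38 and 26 in heart, with 5.08 (SE 0.35). Rgs1, which damps chemokine receptor signalling, stood at 22.9, 42.9, 25.1 and 50.3 CPM in blood and at 751, 479, 502 and 463 CPM in heart, with 4.02 (SE 0.21). Tnfaip3, the A20 inhibitor of NF-kB signalling, stood at 25.8, 22.7, 20.4 and 32 CPM in blood and at 553, 298, 426 and 261 CPM in heart, with 4.01 (SE 0.24). Blood and heart did not overlap for any of the 3, and their edgeR adjusted p-values were 2.11e-14, 4.2e-18 and 8.23e-17. The calls of Nr4a2, Fos, Junb, Dusp1, Rgs1 and Tnfaip3 held under all 13 alternatives tried.

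The promoters shown are from genes called higher in heart whose windows hold a motif match, and not from all such genes. They are RefSeq sequence of GRCm38.p6, 5′ to 3′ on the strand of the gene, from windows of 250 bases before to 50 bases after the start site. Capitals mark the palindromic cAMP response element TGACGTCA in Dusp1 (chr17:26508578-26508645, minus strand), Ppp1r15a (chr7:45526243-45526310, minus) and Btg2 (chr1:134079284-134079351, minus), and 2 matches to an NF-kB motif in Tnfaip3 (chr10:19015383-19015565, minus).
Dusp1: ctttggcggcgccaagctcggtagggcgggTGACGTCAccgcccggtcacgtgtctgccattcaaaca
Ppp1r15a: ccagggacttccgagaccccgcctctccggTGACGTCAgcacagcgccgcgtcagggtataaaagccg
Btg2: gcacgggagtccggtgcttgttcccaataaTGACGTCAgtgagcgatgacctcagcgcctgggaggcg
Tnfaip3: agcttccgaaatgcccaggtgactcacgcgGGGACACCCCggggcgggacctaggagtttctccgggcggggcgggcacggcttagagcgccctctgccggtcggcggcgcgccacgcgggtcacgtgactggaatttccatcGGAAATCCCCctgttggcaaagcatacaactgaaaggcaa

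The response element was found on either strand in 3 of the 13 tested immediate early genes with a window. Nr4a2, Fos and Junb were not among them. The element was also in 7 of 123 genes called higher in heart (5.69%), in 104 of 2714 tested genes (3.83%) and in 2.14% of all 24834 windows. The NF-kB motif was found in 21 of the 123 genes (17.1%), in 338 of 2714 tested genes and in 9.06% of all windows. The AP-1 motif TGANTCA was in 10 of the 123 genes (8.13%) and in 6.04% of the tested genes, and in none of the 13 immediate early genes. The shorter TGACG, which the response element contains, was in 62 of the 123 genes (50.4%) and in 39.9% of the tested genes. Of 25 genes called lower in heart with a window, the response element was in 0, the NF-kB motif in 4 (16%), the AP-1 motif in 6 (24%) and TGACG in 4 (16%). A match describes letters in the window and not a bound site.

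Secreted mediators were low in blood NK cells apart from Ccl5, which is in the rule. Ccl4, an inflammatory chemokine, stood at 175, 144, 182 and 243 CPM in blood and at 2478, 1895, 1978 and 830 CPM in heart. All 4 heart values exceeded all blood values, with a log2 difference of 3.33 (SE 0.16) and an edgeR adjusted p of 2.43e-19, although 1 barcode held 47.0% of the UMIs in the heart of control mouse 1. Ccl3 stood at 51.6, 30.3, 42.3 and 54.9 CPM in blood and at 380, 450, 382 and 166 CPM in heart, with 3.04 (SE 0.23). For Ccl3, 1 barcode held 45.5% of the UMIs in the heart of control mouse 1 and 10% to 25.8% in the other hearts. Ifng, which encodes interferon gamma, stood at 83.1, 40.4, 61.2 and 27.5 CPM in blood and at 250, 123, 248 and 94.9 CPM in heart, with 1.77 (SE 0.24) and an increase in 4 of 4 mice. Of 6 tested genes of this list, 4 were called higher and 0 lower, against 4.52% and 1.06% of all genes tested. The fourth, Xcl1, was higher in 3 of 4 mice, and its DESeq2 adjusted p was 0.139. It stood at 48.7, 60.6, 58 and 22.9 CPM in blood and at 578, 36.3, 388 and 190 CPM in heart. In heart, 1 barcode held 64.2%, 60%, 52.5% and 56.3% of the Xcl1 UMIs in control mice 1 and 2 and stroke mice 1 and 2. For Ifng, 1 barcode held 62.5% of the 8 UMIs in the heart of stroke mouse 2 and 12.8% to 31.0% in the other hearts.

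Of 12 cytotoxic genes, 6 were called higher in heart and 0 lower, with a median of 0.47. Of all genes tested, 4.52% were called higher and 1.06% lower. Serpinb9, an inhibitor of granzyme B, stood at 398, 492, 392 and 476 CPM in blood and at 777, 799, 1424 and 1507 CPM in heart, with 1.33 (SE 0.14). Fasl, the ligand of the death receptor Fas, stood at 132, 255, 182 and 224 CPM in blood and at 363, 392, 509 and 332 CPM in heart, with 1.07 (SE 0.17). Heart was above blood for both in every mouse. Gzmb stood at 834, 1014, 867 and 952 CPM in blood and at 1433, 1786, 2162 and 866 CPM in heart, with 0.79 (SE 0.12) and an edgeR adjusted p of 4.52e-06. Gzmb was higher in 3 of 4 mice and not in stroke mouse 2, and the DESeq2 adjusted p was 0.36. Prf1, also called, had 0.45 (SE 0.09) and a DESeq2 adjusted p of 0.0638, and without stroke mouse 1 it had 0.28 with an edgeR adjusted p of 0.126.

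Of 15 tested cytokine receptor and Jak-Stat genes, 2 were called higher in heart and 0 lower, with a median of 0.20 and 5 negative differences. Over all genes tested, 4.52% were called higher and 1.06% lower. Il12rb2, a subunit of the interleukin-12 receptor, stood at 247, 267, 271 and 330 CPM in blood and at 742, 835, 757 and 617 CPM in heart, with 1.44 (SE 0.14). Ifngr1 stood at 826, 881, 1001 and 847 CPM in blood and at 1338, 1372, 1901 and 1566 CPM in heart, with 0.79 (SE 0.09). The 2 organs did not overlap for either gene. Irf8, a transcription factor that NK cells need for their expansion, stood at 453, 656, 491 and 549 CPM in blood and at 1096, 1329, 1437 and 1032 CPM in heart, with 1.21 (SE 0.11).

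The genes that were higher in blood were fewer and their differences smaller. Myo1f, a motor of leukocyte migration, stood at 533, 510, 591 and 609 CPM in blood and at 285, 356, 356 and 308 CPM in heart, with -0.76 (SE 0.14) and an edgeR adjusted p of 0.000215. Ripor2, an inhibitor of RhoA, stood at 1178, 1100, 1217 and 1446 CPM in blood and at 898, 799, 833 and 890 CPM in heart, with -0.52 (SE 0.10). Blood and heart did not overlap for either gene, and both calls held under all 13 alternatives. Klrk1 stood at 1187, 1065, 1107 and 989 CPM in blood and at 794, 741, 858 and 736 CPM in heart, with -0.47 (SE 0.10) and an edgeR adjusted p of 0.00153. Its DESeq2 adjusted p was 0.068.

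Ccr2, the receptor that draws cells from marrow to inflamed tissue, stood at 281, 149, 220 and 183 CPM in blood and at 181, 65.3, 76.3 and 142 CPM in heart. It was lower in heart in 4 of 4 mice, with -0.93 (SE 0.22) and an edgeR adjusted p of 0.00406. Without stroke mouse 1 the difference was -0.71 with an edgeR adjusted p of 0.149, and the DESeq2 adjusted p with all mice was 0.198. S1pr5, the receptor by which NK cells leave tissues, stood at 195, 225, 221 and 201 CPM in blood and at 104, 167, 191 and 178 CPM in heart, with -0.40 (SE 0.19) and an edgeR adjusted p of 0.29.

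None of 6 Ly49 genes was called between the organs, and their median was -0.12. Klra8 stood at 831, 631, 743 and 732 CPM in blood and at 1226, 733, 763 and 391 CPM in heart, with 0.08 (SE 0.13). Klra4 stood at 1155, 883, 692 and 1208 CPM in blood and at 596, 465, 1094 and 676 CPM in heart, with -0.41 (SE 0.16) and an edgeR adjusted p of 0.136. It was lower in heart in 3 of 4 mice and higher in stroke mouse 1, without which the difference was -0.92 with an edgeR adjusted p of 3.55e-05. The sign for Klra8 turned without control mouse 1 (-0.10).

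**Figure D4:**
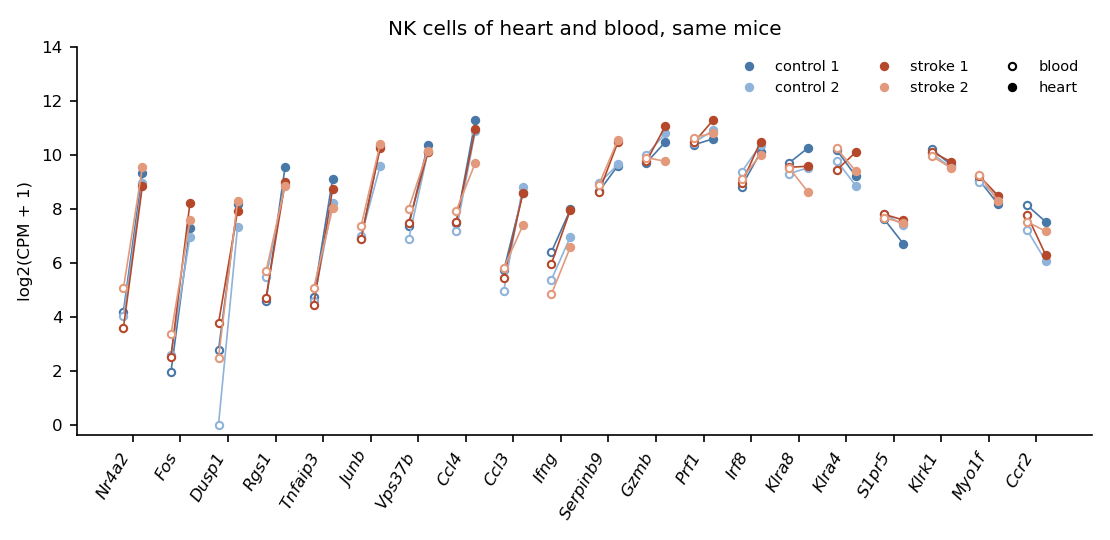
Log2(CPM + 1) of 20 genes in NK cells of blood (open points) and heart (filled points), joined within each of the 4 mice. Nr4a2, Fos, Dusp1, Rgs1, Tnfaip3, Junb, Ccl4 and Ccl3 rise in every mouse, whereas the lines of Klra8 and Klra4 cross.

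Whether the difference between donors depended on the organ was tested as an interaction. Of 4073 genes, 2 (0.0491%) passed, S100a9 and S100a8, which are neutrophil genes and are taken up under the results for a closer look. No NK gene of the lists passed.

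The third comparison split the blood NK barcodes of each mouse by Klra8. The 214 barcodes with a UMI of this gene and the 259 without it had similar depths, with medians of 3566 and 3444 UMIs in control mouse 1 and 3050.5 and 3165.5 in stroke mouse 1. Of 3285 genes, 1 (0.0304%) passed in edgeR, 0 higher and 1 lower. This was Gm36723, a long intergenic RNA on chromosome 12 (GRCm38, 25303940 to 25471979). It had 3, 14, 10 and 1 UMIs in barcodes with Klra8 and 34, 21, 41 and 16 in those without, in control mice 1 and 2 and stroke mice 1 and 2.

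Gm36723 was lower with Klra8 in 4 of 4 mice, with a log2 difference of -1.69 (SE 0.33) and an edgeR adjusted p of 0.0374. The call was lost without control mouse 1 (-1.35, edgeR adjusted p 0.33) and without stroke mouse 1 (-1.57, 0.27), and DESeq2 did not call it. Klrc1, which encodes the inhibitory receptor NKG2A, stood at 98.4 against 271 CPM, 102 against 202, 84.9 against 124 and 139 against 233 in the same order of mice. It was lower with Klra8 in every mouse, with -0.92 (SE 0.20) and an edgeR adjusted p of 0.0933. The 12 cytotoxic genes had a median of 0.10 and the 12 genes of terminal maturation a median of 0.06, with none called.

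The fourth comparison split the blood NK barcodes by Klrg1, an inhibitory receptor of late NK cells. The barcodes with a Klrg1 UMI numbered 37, 51, 81 and 28 and those without 57, 70, 113 and 36. Those with a UMI were deeper in all 4 mice, with medians of 3722, 3442, 3335 and 3347 UMIs against 3324, 2962, 3002 and 3098. The part of that depth in the results was not tested, because thinning left fewer than 20 barcodes in a sum. Of 3420 genes, 22 (0.643%) passed in edgeR, 12 higher (0.351%) and 10 lower (0.292%).

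Of 12 tested genes of terminal maturation, 5 were higher with Klrg1 and 0 lower, and 11 had a positive difference, with a median of 0.51 against -0.0033 over all genes. Of the 5, DESeq2 called Zeb2 and Gzmb and not Cma1 (adjusted p 0.138), Cx3cr1 (0.999) or Itgam (0.999). Zeb2 stood at 1806, 1596, 1486 and 1604 CPM with Klrg1 and at 955, 957, 1075 and 1147 CPM without, in control mice 1 and 2 and stroke mice 1 and 2. The 2 sets did not overlap, with a log2 difference of 0.65 (SE 0.09) and an edgeR adjusted p of 3.66e-06. Prf1 stood at 1577, 1874, 1593 and 1996 CPM with Klrg1 and at 1152, 1039, 1274 and 1251 CPM without, with 0.56 (SE 0.09). Gzmb stood at 903, 1380, 1035 and 1379 CPM with and at 793, 728, 741 and 582 CPM without, with 0.67 (SE 0.11).

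Klra9 stood at 1065, 1034, 687 and 734 CPM with Klrg1 and at 677, 279, 558 and 434 CPM without, with 0.83 (SE 0.13) and a DESeq2 adjusted p of 1. Cma1, a chymase of granules, stood at 606, 534, 344 and 587 CPM with and at 268, 275, 323 and 243 CPM without, with 0.77 (SE 0.15). Both were higher in 4 of 4 mice. Another Ly49 gene, Klra4, was called in the other direction, at -0.45 (SE 0.12) with an edgeR adjusted p of 0.0462. Klra4 was lower with Klrg1 in 3 of 4 mice, and its call was lost under 6 of 8 alternatives, DESeq2 among them. Eomes was not called, at 216, 221, 265 and 245 CPM with Klrg1 and 313, 238, 314 and 330 CPM without.

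Lower with Klrg1 was Ccr2, at 142, 68.2, 143 and 78.3 CPM against 389, 215, 281 and 278 CPM. The sets did not overlap, with -1.34 (SE 0.19) and an edgeR adjusted p of 3.66e-06. Tcf7, a transcription factor of early NK cells, had 6, 5, 5 and 0 UMIs with Klrg1 and 16, 12, 30 and 6 without. Its difference was -1.62 (SE 0.40) with an edgeR adjusted p of 0.0291, and the call was lost without stroke mouse 2 (-1.46, 0.0868), without the mouse as a block (0.0936) and in DESeq2 (0.999). Of the 3 tested early genes, 2 were lower and 0 higher, the other being Ctla2a (-0.87, SE 0.15). Over all genes tested, 0.292% were called lower and 0.351% higher. The edgeR call of Ctla2a was lost without stroke mouse 1 (-0.72, 0.065), and its DESeq2 adjusted p was 0.134. The calls of Zeb2, Ccr2, Prf1 and Gzmb held under all 8 alternatives that could be run, DESeq2 among them, which called 5 genes in all.

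**Figure D5:**
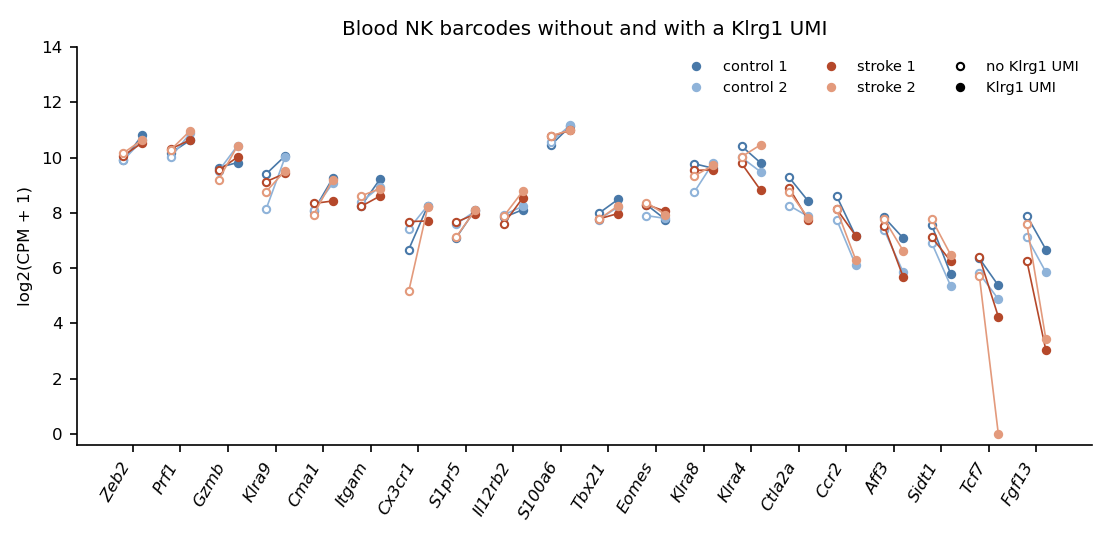
Log2(CPM + 1) of 20 genes in blood NK barcodes without (open points) and with (filled points) a Klrg1 UMI, joined within each mouse. Zeb2, Prf1 and Gzmb rise and Ccr2, Aff3, Sidt1, Tcf7 and Fgf13 fall in all 4 mice, while Klra4 moves up in stroke mouse 2 and down in the others.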

How the data were processed

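The deposited values are UMI counts per gene and hashtag for each barcode, not normalized; the authors made them with Cell Ranger 7.1.0 on mm10, per the submitters' processing notes. Organ was read from the hashtags, with at least 10 hashtag UMIs and 80% of 1 kind. Barcodes needed 200 genes and at most 10% mitochondrial UMIs. Doublets were left in, and Scrublet (scanpy 1.11.5, expected rate 6%) served as an alternative at a score over 0.25. The match of barcode suffixes to mice is assumed.

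Counts were summed per mouse and tested with edgeR 4.0.16 (quasi-likelihood, TMM, filterByExpr, Benjamini-Hochberg 0.05) in R 4.3.3. The 15 genes of the selection rule and the transgenes were not tested. Standard errors are the size of the log2 difference divided by the root of F. CPM in the tests are scaled after the filter and TMM, and elsewhere to the total. Nothing says that samples of a group came from separate donors, so p-values measure the spread between these mice. Alternatives were RLE factors, no filter, DESeq2 1.42.0, other limits, blocks and leaving out each mouse, and removal of barcodes rich in S100a8 and S100a9, which was chosen after seeing the data.

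Named genes were markers, list genes, up to 15 called genes per direction by p, up to 5 by fold, the 12 most abundant, transgenes and sex-linked genes. The members and all 30 lists were chosen with earlier results of these data known. GENCODE M21 gave coordinates for 32158 of 32285 gene identifiers. The test was also run on simulated counts, and the outcome is not given here.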

Additional observations from a re-analysis of the deposited data

Results flagged for a closer look

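S100a9 and S100a8, calprotectin subunits that are abundant in neutrophils, differed between the organs in how NK cells of stroke and control recipients compared. The interaction was -5.63 (log2, SE 1.05) for S100a9 and -6.02 (SE 1.14) for S100a8, both with an edgeR adjusted p of 0.0339. S100a9 had 4, 13, 69 and 4 UMIs in blood NK cells of control mice 1 and 2 and stroke mice 1 and 2, and 170, 2, 8 and 1 in heart NK cells. A single heart barcode of control mouse 1 held 283 of the 286 UMIs of both genes there, and 2 blood barcodes of stroke mouse 1 held 45 and 38 of 109. These 3 barcodes were also the 3 NK barcodes with a Scrublet score over 0.25. Without them 0 genes passed in edgeR, with 168 at an unadjusted p under 0.05. Without control mouse 1 the interaction of S100a9 was 0.12 and that of S100a8 was -0.66.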

How the results depend on the processing

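The blood NK share differed by -0.77 points between donors, and by 6.79 over barcodes with at most 1 UMI of the B-cell genes. Leaving out 1 mouse gave -5.37 to 3.84, with reversals without control mouse 2 (1.23) and stroke mouse 2 (3.84). The 0 genes called for stroke became 23 without the low-count filter (8 higher, 15 lower) and 7 to 14 with a mouse left out. For heart against blood, 189 genes became 82 under DESeq2, 257 without the filter (174 higher, 83 lower) and 129 to 204 with a mouse left out. The 2 interaction genes became 0 under RLE factors, DESeq2, a 90% hashtag limit, a myeloid limit of 2, Scrublet removal and S100 barcode removal, and 1 to 10 with a mouse left out. For Klra8, 1 gene became 9 without the filter, 0 under DESeq2 and 0 with at least 2 UMIs, and 1 to 2 with a mouse left out. For Klrg1, 22 became 5 under DESeq2; thinning and the 2-UMI split were not run, since a sum held too few barcodes. Where values changed, the cause was not tested beyond smaller numbers of genes or mice.

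Leaving the mouse out as a block gave 162 genes for heart against blood, 0 for Klra8 and 9 for Klrg1. With the replicate number as a block, stroke against control gave 0 genes in edgeR, 194 at an unadjusted p under 0.05. The correlation of same-numbered mice was -0.01. With 2 mice in each group, the other pairing must give the same size with the opposite sign. Whether the numbers mark a pairing was therefore not settled.

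Signs that turned with a mouse left out are given as the range over the 4 omissions. Between donors, Gzmb ran from -0.17 to 0.13 (0.05 without stroke mouse 1), Klra4 from -0.55 to 0.25 (0.05 without control mouse 1), Klra7 from -0.37 to 0.16 (0.05 without control mouse 2) and Klra8 from -0.15 to 0.23. Between organs Klra8 ran from -0.10 to 0.27, and in the interaction S100a9 ran from -7.96 to 0.12. Of 43 named genes called between organs, 29 kept their call under every alternative.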
